A study of Mus musculus with 3 samples.

Results

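The genes described here license DNA for replication: Mcm2, Mcm3, Mcm4, Mcm5, Mcm6, Mcm7, Mcm10, Cdc6, Cdt1 and Gmnn. They were found by the symbol column of the deposited tables, and all 10 were listed, each in 1 row, among 17222 gene names. The data are 3 RNA-sequencing libraries of mouse bone marrow (BM) cells, 1 for each of 3 time points of treatment with recombinant LECT2, a secreted cytokine. The mice were C57BL/6, aged 6 to 8 weeks and male according to the methods, and carried no further allele that the labels name. LECT2 was given under the skin once a day at 300 μg per kg for 3 days in the 3-day group and for 5 days in the 5-day group, and the 0-day group is labelled with 0 days of it. The labels name no vehicle for the 0-day library. The labels name marrow cells flushed from leg, pelvic and upper arm bones, with no sort, and the methods of the study also name flushed BM cells. A legend of the study speaks instead of BM mononuclear cells, a preparation that would hold fewer granulocytes. Whether mononuclear cells were separated after flushing is not stated in the sources used here. Each library averages all cell types in it, and the number of mice behind a library is not given in the sources used here.

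In G1, before DNA synthesis starts, the origin recognition complex and CDC6 sit on replication origins, and CDT1 helps them to load the MCM2-7 helicase, a ring of 6 related subunits, as an inactive double ring. Geminin, the product of Gmnn, binds CDT1 in S, G2 and early M phase and so blocks a second round of loading, and MCM10 acts later, when the loaded helicase is switched on. In marrow these genes are known to be active in dividing precursors, whereas mature neutrophils have left the cell cycle.

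In order of time the libraries held 15523952, 15146983 and 15514673 reads on genes. Levels are given as RPKM, reads scaled to gene length and to these totals, and at this depth 1 read on 1000 bases was worth 0.0644, 0.0660 and 0.0645 RPKM. Changes are log2 ratios of RPKM + 0.1, and the 95% intervals beside them come from the exact Clopper-Pearson method applied to the 2 read counts. They cover counting error only, and not the difference between mice. Reads amplified by PCR without molecular identifiers are not independent molecules, so the intervals may be too narrow even for counting error. With 1 library per time point no difference has a replicate check and no p-value is given, and the comparisons at 3 and 5 days share the 0-day library. In such bulk samples, fewer cells of a type and less RNA per cell cannot be told apart. The 10 rows with the most reads took 12.5%, 10.4% and 5.38% of the reads, and a smaller share for these rows lifts the RPKM of every other gene. Among genes with at least 1 RPKM in either library of a pair, the median log2 ratio was 0.09 at 3 against 0 days, 0.31 at 5 against 0 days and 0.25 at 5 against 3 days. After the counts were scaled by TMM factors the 3 medians were 0.01, 0.01 and 0.03. The level of each licensing gene is therefore read against these medians.

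Because the licensing genes are textbook targets of E2F transcription factors, the promoters of the members with a RefSeq promoter entry (GRCm38.p6) were searched for E2F-type letters. The entries cover 250 bases before and 50 bases from the start of transcription, and 8 of the 10 members had one. Mcm4 and Gmnn had none. The letters searched, on both strands, were TTTGGCGC, TTTCCCGC, TTTGCCGC and TTTCGCGC, and also the 7-letter words left when their first T is dropped, which overlap the longer ones wherever those occur. An 8-letter match was found in 6 of the 8 members with an entry, namely Mcm3, Mcm5, Mcm6, Mcm7, Cdc6 and Cdt1, against 2.26% of 32851 windows in the table. In the 250 bases before the start it was found in 4 of 8, namely Mcm5, Mcm6, Mcm7 and Cdc6, against 1.86% of windows. The 7-letter words were found in the same 6 members, against 9.57% of windows, and CCAAT in 6 of 8, in Mcm2, Mcm3, Mcm5, Mcm6, Mcm7 and Mcm10, against 37.4%. A match of letters describes the sequence and is no measure of binding. The 170 bases before the start are shown for the 4 members with a match there and for Mcm10 and Mcm2, which had no E2F-type match, on the strand of the gene with the 7-letter matches in capitals, so that they can be compared with the levels that follow.
Mcm6, chr1:128359706-128359875, minus strand: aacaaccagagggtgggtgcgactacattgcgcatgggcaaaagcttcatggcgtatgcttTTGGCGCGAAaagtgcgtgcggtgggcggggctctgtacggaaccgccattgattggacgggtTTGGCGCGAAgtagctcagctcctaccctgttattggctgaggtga
Mcm5, chr8:75109339-75109508, plus strand: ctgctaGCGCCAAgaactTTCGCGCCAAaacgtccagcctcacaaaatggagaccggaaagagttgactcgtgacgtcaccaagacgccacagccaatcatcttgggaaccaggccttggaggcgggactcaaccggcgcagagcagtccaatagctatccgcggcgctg
Mcm7, chr5:138171884-138172053, minus strand: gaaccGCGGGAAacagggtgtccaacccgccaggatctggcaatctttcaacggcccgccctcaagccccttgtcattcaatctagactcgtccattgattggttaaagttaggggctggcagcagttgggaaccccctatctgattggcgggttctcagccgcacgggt
Cdc6, chr11:98907981-98908150, plus strand: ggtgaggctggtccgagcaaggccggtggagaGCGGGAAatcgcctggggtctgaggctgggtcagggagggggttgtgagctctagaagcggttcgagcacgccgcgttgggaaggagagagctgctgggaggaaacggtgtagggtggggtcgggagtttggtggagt
Mcm10, chr2:5012792-5012961, minus strand: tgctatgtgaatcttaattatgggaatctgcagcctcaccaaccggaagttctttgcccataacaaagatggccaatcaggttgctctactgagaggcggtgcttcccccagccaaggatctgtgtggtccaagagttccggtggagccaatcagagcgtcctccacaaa
Mcm2, chr6:88898781-88898950, minus strand: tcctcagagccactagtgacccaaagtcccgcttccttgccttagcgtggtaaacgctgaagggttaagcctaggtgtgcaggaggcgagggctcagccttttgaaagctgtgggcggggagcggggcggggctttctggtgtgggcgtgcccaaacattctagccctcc
In Mcm3 and Cdt1 the matches lay within 50 bases after the start, and 30 bases around them are shown in the same way. A further match in Mcm3 runs past the end of its line.
Mcm3, chr1:20820266-20820295, minus strand: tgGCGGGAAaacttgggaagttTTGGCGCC
Cdt1, chr8:122568031-122568060, plus strand: ccGCGGGAActacctttTTGGCGCcatggc

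Mcm6 and Mcm5 each held E2F-type words on both strands that overlap each other. Counting the start as position 0, the 8-letter matches in Mcm6 began at -110, -106 and -47, and those in Mcm5 began at -153 and -149. Mcm7, which has 2 promoter windows in the table, held a match at -165 from the start shown, and Cdc6 held 1 at -138.

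The MCM2-7 subunits had similar levels at 0 and 3 days and higher levels at 5 days. Summed over the 6 genes, they had 410, 383 and 630 RPKM at 0, 3 and 5 days, from 18888, 17353 and 29260 reads. Mcm7, on the minus strand of chromosome 5 (138164583 to 138172422 in GENCODE M21, GRCm38), was the most abundant subunit in every library, with 114, 96.1 and 151 RPKM from 4243, 3488 and 5609 reads. Its log2 ratio was -0.25 (95% interval -0.31 to -0.18) at 3 against 0 days and 0.40 (0.35 to 0.46) at 5 against 0 days, the smallest increase of the 6 subunits in the deposited RPKM and under TMM scaling, though with the length trend removed Mcm2, at 0.00, was below Mcm7, at 0.11. The 3-day library was thus the lowest for Mcm7 and the 5-day library the highest, and the 3 deposited levels differed beyond counting error. At 5 against 0 days, however, Mcm7 stood at percentile 55.3 of all genes, with a log2 ratio of 0.10 under TMM scaling.

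Mcm6, whose product stands beside MCM2 and MCM4 in the ring, had 70.4, 70.3 and 122 RPKM at 0, 3 and 5 days, from 3169, 3088 and 5476 reads. The first 2 libraries did not differ beyond counting error, and the log2 ratio at 5 against 0 days was 0.79 (0.73 to 0.85). Mcm5 had 55.0, 55.7 and 97.0 RPKM, from 2920, 2889 and 5151 reads. Its product forms, with MCM2, the gate through which the ring opens. The log2 ratio of Mcm5 was 0.02 (-0.05 to 0.09) at 3 against 0 days, or -0.06 under TMM scaling and -0.21 with the length trend removed, and 0.82 (0.75 to 0.89) at 5 against 0 days, the largest increase among the subunits in the deposited RPKM and under TMM scaling, though with the length trend removed Mcm6, at 0.38, was above Mcm5, at 0.31. Mcm6 lies on chromosome 1 (128331590 to 128359664, minus strand) and Mcm5 on chromosome 8 (75109569 to 75128439, plus strand).

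Mcm3, on chromosome 1 (20802968 to 20820312, minus strand), had 70.5, 66.8 and 112 RPKM, from 3159, 2922 and 4999 reads. Its level at 3 days was lower by a log2 ratio of -0.077, with an interval that nearly reached 0, and at 5 days it was higher than at 0 days by 0.66 (0.60 to 0.73). Mcm2, on chromosome 6 (88883474 to 88898780, minus strand), is, with Mcm4 and Mcm6, a substrate of the kinase that fires origins. It had 56.3, 51.0 and 79.9 RPKM, from 2955, 2613 and 4189 reads, with log2 ratios against 0 days of -0.14 (-0.22 to -0.07) for the 3-day library and 0.50 (0.44 to 0.57) for the 5-day library. Mcm4, on chromosome 16 (15623897 to 15637400, minus strand), had the lowest level of the 6 in every library, with 43.8, 43.3 and 68.9 RPKM from 2442, 2353 and 3836 reads, and a log2 ratio of 0.65 (0.58 to 0.73) at 5 against 0 days. At 3 against 0 days its log2 ratio was -0.02 (-0.10 to 0.06).

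**Figure D1:**
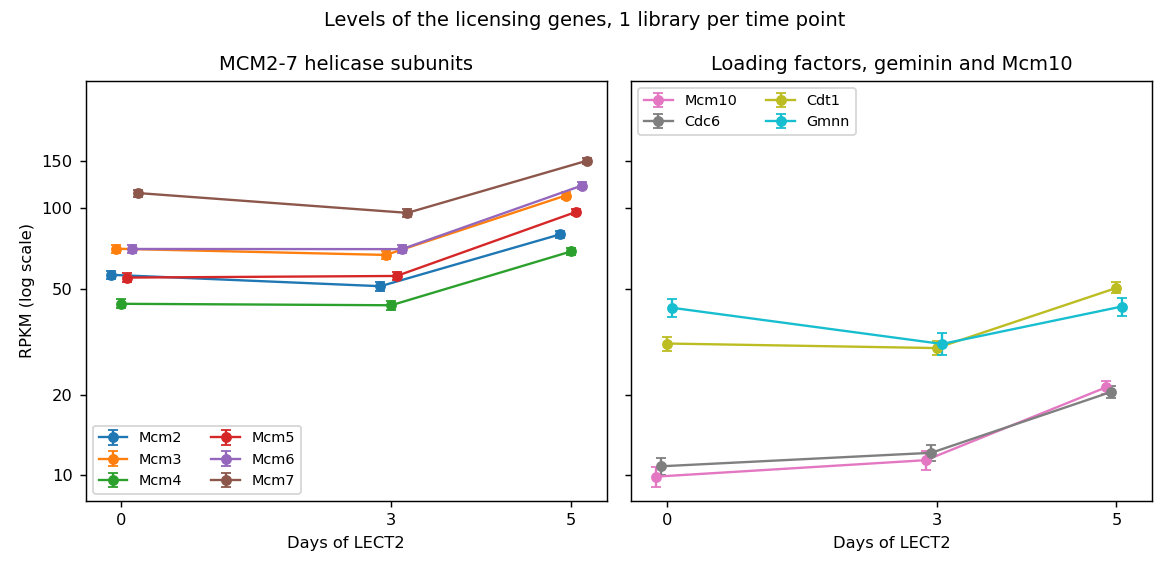
RPKM (log scale) of each licensing gene against days of LECT2, 1 library per time point, with 95% exact intervals for counting error as bars and lines joining the libraries for reading only. The left panel holds the 6 MCM2-7 subunits, which are close to level from 0 to 3 days and higher at 5 days, and in the right panel Mcm10 and Cdc6 lie lowest and Gmnn is lowest at 3 days and about equal at 0 and 5 days.

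The subunits kept most of their order. At 0 days Mcm7 was followed by Mcm3 and Mcm6, then by Mcm2 and Mcm5 and last by Mcm4, and neither the pair of Mcm3 and Mcm6 nor that of Mcm2 and Mcm5 differed beyond counting error. At 5 days the order was Mcm7, Mcm6, Mcm3, Mcm5, Mcm2 and Mcm4, with every step beyond counting error. The highest subunit exceeded the lowest 2.60-fold at 0 days, 2.22-fold at 3 and 2.19-fold at 5 days. On the log2 scale the ratio of Mcm7 to Mcm4 changed by -0.23 at 3 days and by -0.25 at 5 days against 0 days, but by -0.038 and -0.015 with the length trend described further on removed. In the order of the days Mcm7 made up 27.8%, 25.1% and 24.0% of the summed RPKM, whereas Mcm6 made up 17.2%, 18.3% and 19.3%. Mcm5 went from 13.4% to 14.5% and 15.4% at the same time points, and the shares of Mcm2, Mcm3 and Mcm4 differed by about 1 percentage point or less between libraries.

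A ratio of 2 genes within a library does not depend on how the library is scaled. The ratio of Mcm6 to Mcm7 RPKM was 0.617 (0.589 to 0.646) at first, 0.731 (0.696 to 0.768) after 3 days and 0.806 (0.777 to 0.837) after 5 days, and these intervals did not overlap. The ratio of Mcm5 to Mcm7 was 0.482, 0.580 and 0.643. Against 0 days the log2 ratio of Mcm6 to Mcm7 changed by 0.25 and 0.39 at 3 and 5 days, or by 0.15 and 0.27 with the length trend removed. For Mcm5 to Mcm7 the changes were 0.27 and 0.42, or 0.10 and 0.21 with the trend removed. These pairs were picked with the values known. Mcm7 shares 321 exon bases with Ap4m1 and 64 with Cops6, both on the opposite strand, and the library kit is not one that marks strand, so reads in these bases cannot be assigned to 1 gene. Both neighbours were less abundant per length than Mcm7, with 4.87, 7.88 and 11.5 RPKM for Ap4m1 and 38.6, 32.3 and 42.7 RPKM for Cops6. Mcm4 and the DNA repair gene Prkdc start 466 bases apart on opposite strands with no shared exon base. Prkdc had 1.47, 2.50 and 4.04 RPKM, with log2 ratios of 0.72 for 3 days, where Mcm4 was at -0.02, and 1.40 at 5 days, where Mcm4 was at 0.65. Prkdc is long, at 12674 bases, and with the length trend removed it was at 0.02 at 3 days and 0.36 at 5 days, where Mcm4 was at -0.27 and 0.12.

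**Figure D2:**
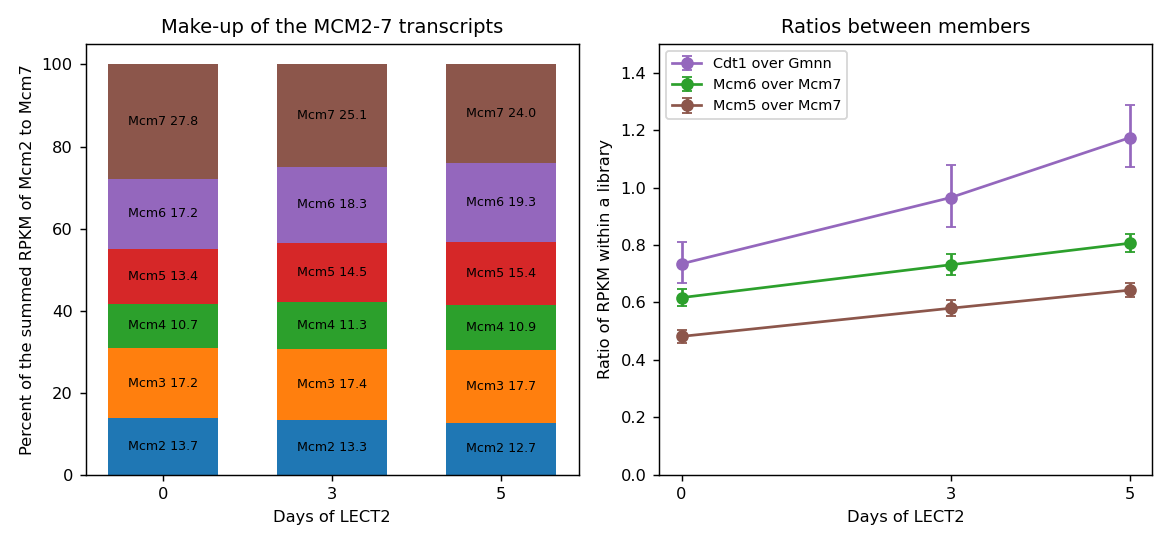
Left, the share of each subunit in the summed RPKM of Mcm2 to Mcm7, in percent, for each library, written in the bars. Right, ratios of RPKM between members within a library against days of LECT2, with 95% exact intervals for counting error. Mcm7 goes from 27.8% to 24.0% of the sum, and the ratio of Cdt1 to Gmnn goes from 0.735 to 1.17.

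The loading factors Cdc6 and Cdt1 were also highest at 5 days. Cdc6, an ATPase of the loading machinery, lies on chromosome 11 (98907801 to 98923940, plus strand) and had 10.8, 12.1 and 20.5 RPKM, from 771, 845 and 1464 reads. Its log2 ratio was 0.17 (0.03 to 0.31) at 3 against 0 days and 0.92 (0.80 to 1.05) at 5 against 0 days, so that Cdc6 and Mcm10 were the members whose levels at 3 days were above those at 0 days beyond counting error. Once the trend of the log2 ratio with gene length was removed, both were lower at 3 days, at -0.19 for Cdc6 and -0.036 for Mcm10. At 5 against 0 days Cdc6 was at 0.29 with this trend removed and at 0.61 under TMM scaling. Cdt1, on chromosome 8 (122568015 to 122573554, plus strand), had 31.1, 29.9 and 50.3 RPKM, from 1084, 1017 and 1751 reads. Its product is destroyed once DNA synthesis begins. The log2 ratio of Cdt1 was -0.06 (-0.18 to 0.07) at 3 days and 0.69 (0.58 to 0.80) at 5 days.

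Gmnn, which encodes the inhibitor of CDT1, had the smallest log2 ratio of the 10 at 3 and at 5 against 0 days in the deposited RPKM and under TMM scaling, whereas with the length trend removed Mcm2 had the smallest, at -0.36 and 0.00. It lies on chromosome 13 (24751845 to 24761923, minus strand) and had 42.3, 31.0 and 42.8 RPKM at 0, 3 and 5 days, from 654, 467 and 661 reads. Its log2 ratio was -0.45 (-0.62 to -0.28) at 3 days and 0.02 (-0.14 to 0.17) at 5 against 0 days, the only interval of the latter comparison that held 0. Against 3 days, the 5-day level was higher by 0.47 (0.29 to 0.64). Under TMM scaling Gmnn was lower at 5 than at 0 days, at -0.29, whereas with the length trend removed it was higher, at 0.25. Removing the trend also brought the 3-day log2 ratio of Gmnn to -0.07, and among genes within 10% of its length Gmnn stood at percentile 43.2 at 3 against 0 days. The direction for Gmnn at 5 against 0 days therefore rests on the scaling.

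The ratio of Cdt1 to Gmnn RPKM was 0.735 (0.666 to 0.811) in the 0-day library, 0.965 (0.864 to 1.08) in the 3-day library and 1.17 (1.07 to 1.29) in the 5-day library. Gmnn was thus above Cdt1 at 0 days, not distinguishable from it at 3 days and below it at 5 days. On the log2 scale the ratio changed by 0.39 at 3 days and by 0.67 at 5 days against 0 days, and by -0.01 and 0.19 with the length trend removed. Transcript levels do not give the amounts of the 2 proteins, both of which are set by degradation within the cell cycle.

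Mcm10, a replication initiation factor that travels with the active helicase, had the largest increase of all members. It lies on chromosome 2 (4989714 to 5012791, minus strand) and had 9.86, 11.4 and 21.3 RPKM, from 537, 604 and 1159 reads. Its log2 ratio was 0.20 (0.03 to 0.38) at 3 days and 1.10 (0.96 to 1.26) at 5 days, the latter a 2.15-fold difference, and 0.90 (0.76 to 1.05) between 3 and 5 days. Mcm10 and Cdc6 were the lowest members in every library and did not differ from each other beyond counting error in any. The promoters of Mcm10 and Mcm2 held none of the E2F-type words searched, and these genes had log2 ratios at 5 days of 1.10 and 0.50. The ratios of Mcm5, Mcm6, Mcm7 and Cdc6, with at least 1 word before the start, spanned 0.40 to 0.92. Mcm3 and Cdt1, with matches after the start, were at 0.66 and 0.69. With the length trend removed Mcm10 and Mcm2 were at 0.58 and 0.00, and the 6 members with a match spanned 0.11 to 0.44. A link between these words and the ratios was not tested.

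Over the 10 members, the median log2 ratio was -0.04 at 3 against 0 days, 0.68 at 5 against 0 days and 0.74 at 5 against 3 days, beside 0.09, 0.31 and 0.25 for all genes. At 3 against 0 days, 3 members were higher by any amount against 57.1% of all 11325 genes, 7 were lower against 42.9%, and none was 2-fold higher against 4.08%. The counting interval lay above 0 for 2 of the 10 (Mcm10 and Cdc6), below 0 for 4 (Mcm2, Mcm3, Mcm7 and Gmnn), and held 0 for the other 4, against 41.1% of all genes above 0 and 26.2% below. Such intervals are narrower for genes with more reads. At 5 against 0 days all 10 were higher, against 67.3% of 11497 genes, and 9 had intervals above 0, against 55.1%. In the same comparison 7 were at least 1.5-fold higher, against 34.5%, and 1 (Mcm10) was at least 2-fold higher, against 15.5%. The share of members past 2-fold was thus near the background, and that past 1.5-fold was above it on this scale but, as given next, not under TMM scaling or with the length trend removed. At 5 against 3 days all 10 were higher, against 73.2% of 11375 genes, and all 10 intervals lay above 0, against 54.4%. Of the 10, 9 were at least 1.5-fold higher, against 17.3%, and none was 2-fold higher, against 1.95%. Within all genes, the log2 ratios of the members at 5 against 3 days ran from percentile 72.4 (Gmnn) to 96.6 (Mcm10), and those at 5 against 0 days from 33.8 (Gmnn) to 87.7 (Mcm10).

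In 7 members (Mcm2, Mcm3, Mcm4, Mcm6, Mcm7, Cdt1 and Gmnn) the 3-day level was below and the 5-day level above the 0-day level. This order was found in 15.6% of 11550 genes. The lower value at 3 days was within counting error for Mcm4, Mcm6 and Cdt1, and the higher value at 5 days was for Gmnn. Under TMM scaling 7 members had this order, with Mcm5 in place of Gmnn, against 9.32% of genes, and with the length trend removed all 10 had it, against 12.6%. Counting intervals below 0 at 3 days and above 0 at 5 days were found for 3 members (Mcm2, Mcm3 and Mcm7), against 2.88% of genes.

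Under TMM scaling the members' median was -0.12 at 3 against 0 days, 0.37 at 5 against 0 days and 0.52 at 5 against 3 days, with 2, 9 and 10 of the 10 higher. The share of all genes that were higher was then 50.8%, 50.6% and 53.2%. At least 1.5-fold higher were 2 members at 5 against 0 days, against 19.7% of genes, and 1 member at 5 against 3 days, against 5.89%. None reached 2-fold, against 7.24% and 0.651% of genes. At 5 against 0 days the share of members past 1.5-fold was then close to that of all genes. The step from 3 to 5 days was thus the one in which each of the 10 was higher under both scalings, as the plot of the ratios shows.

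**Figure D3:**
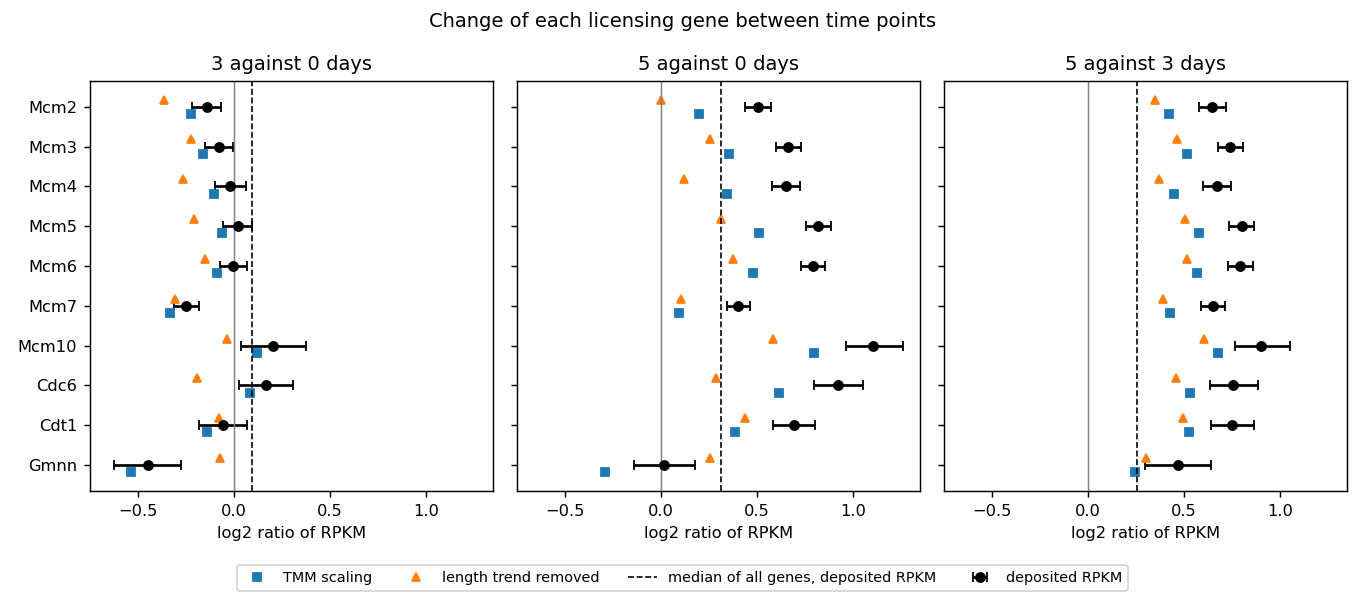
log2 ratio of RPKM of each licensing gene for the 3 pairs of time points. Black circles give the deposited RPKM with 95% exact intervals for counting error, blue squares TMM scaling of the counts and orange triangles the ratio with the length trend removed; the dashed line is the median of all genes with at least 1 RPKM. In the right panel all 10 genes lie above 0 under the 3 settings, and in the left panel most lie at or below 0.

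The log2 ratio of all genes depended on gene length in these libraries, and the members range from 995 bases (Gmnn) to 4608 bases (Cdc6). The trend over all genes at 5 against 0 days was -0.24 at the length of Gmnn and 0.63 at that of Cdc6. Across the 10 members, length and the log2 ratio had a Spearman correlation of 0.77 at 3 against 0 days, 0.62 at 5 against 0 days and 0.49 at 5 against 3 days, as a description of genes from the same libraries. With the trend removed by lowess these were -0.15, 0.09 and 0.22. The part of length in the members' ratios was not tested.

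With the trend removed, the members' median was -0.20 at 3 against 0 days, 0.27 at 5 against 0 days and 0.46 at 5 against 3 days, and 0, 10 and 10 of the 10 were higher, against 50.4%, 50.1% and 49.8% of all genes. At 5 against 0 days, the values ran from 0.00 for Mcm2 to 0.58 for Mcm10, and none of the 10 was 1.5-fold higher, against 14.4% of genes. At 5 against 3 days, they ran from 0.30 for Gmnn to 0.60 for Mcm10, and 1 (Mcm10) was 1.5-fold higher, against 4.61% of genes. Set among the 443 genes within 10% of its own length, whose median was -0.23, Gmnn stood at percentile 69.3 at 5 against 0 days, and Mcm10 stood at 84.3 among 1290 genes with a median of 0.55. Cdt1 stood at 77.7 and Mcm7 at 56.2 among genes of their lengths. At 5 against 3 days these percentiles were 80.4 for Gmnn, 96.7 for Mcm10, 92.0 for Cdt1, 91.7 for Cdc6 and 86.6 for Mcm7.

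**Figure D4:**
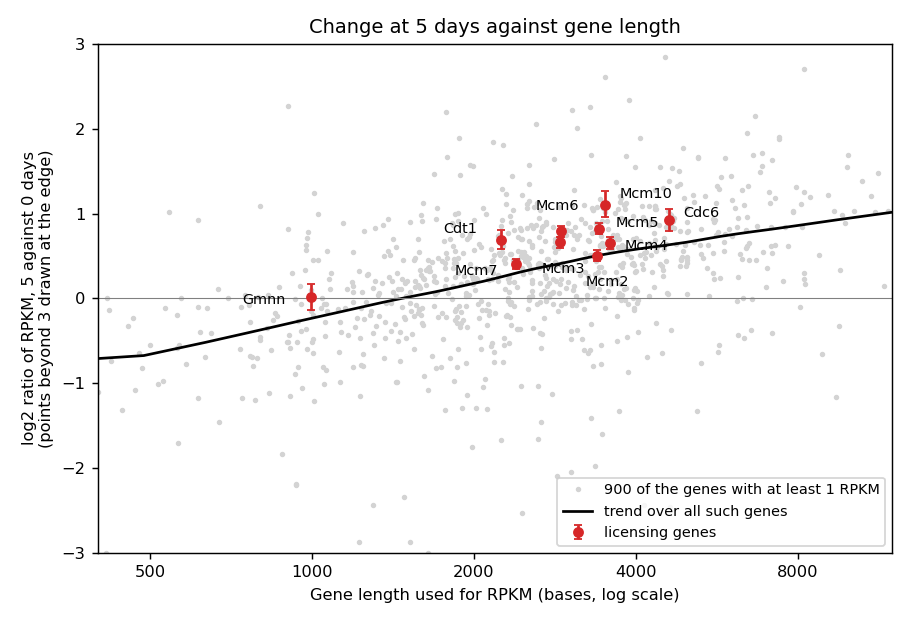
log2 ratio of RPKM at 5 against 0 days against the gene length used for RPKM (log scale). Grey points are 900 of the genes with at least 1 RPKM, the black line is the lowess trend over all such genes, and red points are the licensing genes with 95% exact intervals for counting error. The trend rises with length, Gmnn at 995 bases and Mcm10 at 3510 bases lie above it, and Mcm2 lies on it.

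The genes that act around licensing were described by lists. Of 6 genes of the origin recognition complex, which marks the origins, 5 had at least 1 RPKM, with median log2 ratios against 0 days of 0.16 after 3 days (-0.16 with the length trend removed) and 0.21 after 5 days (-0.10 under TMM scaling). Orc1 had 3.55, 4.73 and 6.41 RPKM and Orc6 had 26.8, 21.2 and 28.6 RPKM, and none of the 5 was 2-fold higher at 5 days, against 15.5% of all genes. The median of this list at 5 days was below that of the licensing genes, and below that of all genes in the deposited RPKM and under TMM scaling but not with the length trend removed, where it was 0.02 against 0.00. Of 11 origin firing genes, which turn the loaded helicase into an active one, 10 had at least 1 RPKM, with medians of 0.21 at 3 days (0.13 under TMM scaling and 0.07 with the length trend removed) and 1.00 at 5 days and 5 of them at least 2-fold higher at 5 days, against 15.5% of all genes. Under TMM scaling 3 of the 10 were 2-fold higher, against 7.24% of genes, and with the length trend removed 2 were, against 5.04%. Ticrr, which brings firing factors to the MCM ring, had 3.25, 5.39 and 11.9 RPKM, and Topbp1, its partner, had 23.9, 32.6 and 61.4 RPKM. Cdc45 and Gins4, subunits of the active helicase, had log2 ratios of 0.50 and 0.04 at 5 days, or 0.20 and -0.26 under TMM scaling, Gins4 being the lowest of its list.

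Among 9 genes for CDT1 degradation and MCM partners, the medians were 0.50 after 3 and 0.95 after 5 days, and all were higher at 5 than at 0 days, against 67.3% of all genes. Skp2, part of a ligase that marks CDT1 for destruction, had 1.69, 2.93 and 6.00 RPKM, and Ddb1, part of another, had 37.1, 54.7 and 81.8 RPKM. Mcmbp, which binds MCM subunits, had 20.4, 28.9 and 39.0 RPKM. Mcm9, a relative of the subunits that acts in DNA repair and not in the MCM2-7 ring, had a log2 ratio of 1.37 at 5 days, and Mcm8, its partner, had 0.48. At 3 days 7 of the 9 were higher than at 0 days, against 57.1% of all genes, and the 3-day median was 0.24 with the length trend removed.

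The 23 replisome genes with at least 1 RPKM had medians of -0.06 at 3 days and 0.62 at 5 days, close to those of the licensing genes. Pcna, the sliding clamp, had 332, 255 and 337 RPKM and was, as Gmnn was, lowest at 3 days, while Pole, a DNA polymerase subunit, had 5.06, 7.50 and 15.9 RPKM. Of 8 deoxynucleotide synthesis genes, all were higher at 5 days, against 67.3% of all genes, with a median of 0.78. Rrm2, a subunit of ribonucleotide reductase, had 81.1, 91.7 and 161 RPKM. The 17 genes of the E2F family and G1/S cyclins had medians of 0.34 at 3 days and 0.92 at 5 days, with 6 at least 2-fold higher at 5 days, against 15.5% of all genes, or 5 under TMM scaling, against 7.24%, and 2 with the length trend removed, against 5.04%. E2f8 had 20.9, 32.2 and 64.7 RPKM, and E2f2, the most abundant E2F by this rule, had 73.8, 93.6 and 111 RPKM. Under TMM scaling the number of genes higher at 5 than at 0 days was 2 of 5 for the origin recognition complex, 8 of 10 for origin firing, 9 of 9 for CDT1 degradation and MCM partners, 17 of 23 for the replisome, 5 of 8 for deoxynucleotide synthesis and 15 of 17 for E2F and cyclins, beside 9 of 10 licensing genes and 50.6% of all genes. With the length trend removed, the medians at 5 days were 0.02 for the origin recognition complex, 0.60 for origin firing, 0.54 for CDT1 degradation and MCM partners, 0.33 for the replisome, 0.26 for deoxynucleotide synthesis and 0.41 for E2F and cyclins, beside 0.27 for the licensing genes.

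The labelled tissue was checked against markers of marrow cell types, and none of the markers that were listed was at 0 reads in any library. Of 10 T and NK cell markers, 9 were listed. The summed RPKM of late neutrophil markers was 150033, 115996 and 41373 in the 3 libraries, and the 11 with at least 1 RPKM were all at least 2-fold lower at 5 than at 0 days, against 5.91% of genes, with a median of -1.88. S100a9 alone had 61729, 44195 and 14032 RPKM. Promyelocyte markers summed to 2328, 2173 and 3691 RPKM, with medians of -0.16 at 3 days (0.22 with the length trend removed) and 0.40 at 5 days (0.09 under TMM scaling). The MCM2-7 sum and the stem and progenitor cell sum given below had the same order of libraries, whereas Mpo and Cebpe did not. Mpo had 435, 581 and 1237 RPKM, and Elane had 1142, 923 and 1451 RPKM, while Cebpe, picked for its direction after the values were seen, had 87.6, 97.6 and 72.2 RPKM. Stem and progenitor cell markers summed to 85.6, 63.7 and 86.2 RPKM, of which Gata2 had 32.6, 25.8 and 28.3 RPKM and Cd34 had 24.1, 14.6 and 21.9 RPKM. Kit, picked for its direction after the values were seen, had log2 ratios of 0.29 at 3 days and 0.96 at 5 days. The median of the stem and progenitor list at 5 days was -0.09, with 3 of the 7 genes of at least 1 RPKM higher and 4 lower, against 67.3% of all genes higher. Under TMM scaling it was -0.40, with 1 of 7 higher and 6 lower, against 50.6% of genes higher. Erythroid markers summed to 4449, 3620 and 1607 RPKM, pro-B and pre-B cell markers to 1736, 1328 and 1248 RPKM, and T and NK cell markers to 210, 126 and 179 RPKM. The erythroid sum was mostly Hba-a1 and Hbb-b1, with 2253 and 1696 RPKM at 0 days, and 4 of the 8 erythroid genes were higher at 5 than at 0 days, against 67.3% of all genes, with a median of -0.12. Under TMM scaling 1 of the 8 was higher, with a median of -0.43, against 50.6% of genes, and with the length trend removed 3 were, with a median of -0.48, against 50.1%. Of 10 pro-B and pre-B cell markers 2 were higher at 5 days, against 67.3% of all genes, with a median of -0.35. Both were at least 2-fold higher, against 15.5% of genes, and none of the 10 was under TMM scaling or with the length trend removed, against 7.24% and 5.04%. Of 9 T and NK cell markers 1 was higher at 5 days, against the same 67.3%, with a median of -0.53. Marker levels thus differed between the same libraries as the licensing genes did. In the deposited RPKM the 5-day medians were below 0 for every marker list but the promyelocyte one. The part of these differences in the result was not tested.

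**Figure D5:**
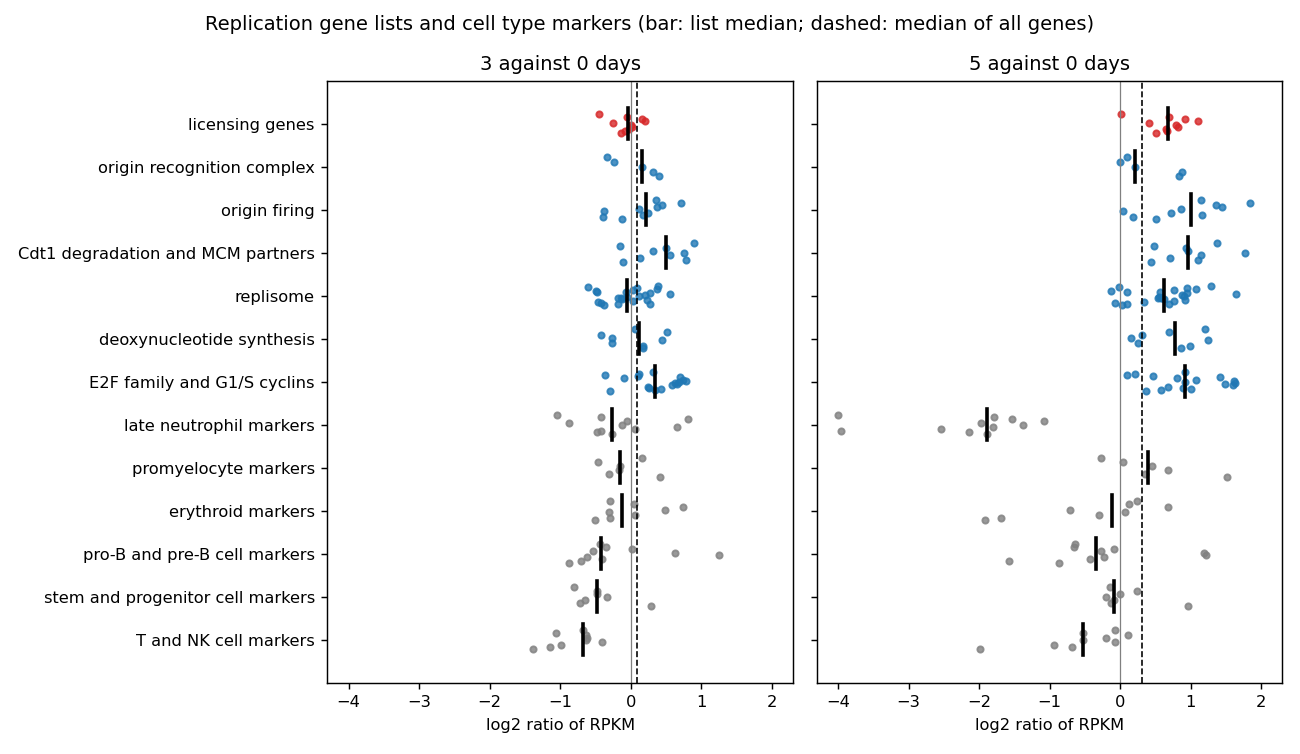
log2 ratio of RPKM at 3 against 0 days (left) and at 5 against 0 days (right) for the licensing genes (red), lists of replication genes (blue) and cell type markers (grey), each point 1 gene with at least 1 RPKM in either library, vertical bars the list medians and the dashed line the median of all genes. At 5 days the licensing genes centre on 0.68 and the late neutrophil markers on -1.88.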

How the data were processed

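The authors deposited 3 tables, 1 per pair of time points, with whole read counts per gene and the RPKM computed from these counts. Dividing the counts by gene length and by the reads on listed genes gave back the deposited RPKM, apart from 18 rows at 0 days and 14 at 3 days that were off by over 0.1%. The submitters' processing notes name mm8, and the aligner is not given in the sources used here. A listed value of 0.01 RPKM stands for no reads in the authors' tables and was taken as 0. The tables also hold the authors' log2 ratios, up or down calls, P values and false discovery rates, which were not used. Of 17559 rows, 28 had no symbol and 232 names had several rows, where only the row of highest mean RPKM was used. Loci are from GENCODE M21 and promoters from RefSeq, both GRCm38 and not mm8.

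Log2 ratios used a pseudocount of 0.1, so changes of low genes are understated, and genes were counted with at least 1 RPKM in either library. TMM factors came from edgeR 4.0.16 and median-of-ratios factors from DESeq2 1.42.0 (R 4.3.3), without a test. The length trend was removed by lowess (span 0.3, statsmodels 0.14.6). Intervals used scipy 1.17.1 in Python 3.11.15. The steps were tested on simulated counts. The members and lists were chosen with earlier results of these data known. All 10 members are named. From each list of replication genes the 2 genes with the highest mean RPKM and those with the highest and lowest log2 ratio at 5 against 0 days qualified to be named. From each marker list only the 2 with the highest mean RPKM qualified, and Cebpe and Kit were added as stated. A mean RPKM of at least 1 was required, and some of the genes that qualified are described. The alternatives tried were other pseudocounts, scalings, RPKM minimums and fold thresholds, summing the rows of a gene and removal of the length trend.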

Additional observations from a re-analysis of the deposited data

Results flagged for a closer look

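For 3 subunits of the MCM2-7 helicase the counting intervals at 3 and at 5 days lay on opposite sides of 0 against the same 0-day library. The log2 ratio of Mcm2 was -0.14 at 3 days and 0.50 at 5 days, that of Mcm3 was -0.077 at 3 days and 0.66 at 5 days, and that of Mcm7 was -0.25 at 3 days and 0.40 at 5 days. The difference between the time points was not tested, since each has 1 library. Under TMM scaling the 3 genes were at -0.23, -0.16 and -0.33 at 3 days and at 0.20, 0.35 and 0.10 at 5 days, in the same order. With the length trend removed, Mcm2 was at -0.36 at 3 days and 0.00 at 5 days, Mcm3 at -0.22 and 0.25, and Mcm7 at -0.30 and 0.11. Of all 11550 genes, 2.88% had counting intervals below 0 at 3 days and above 0 at 5 days.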

How the results depend on the processing

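The members' median at 3 against 0 days was -0.04, and it was -0.13 when the counts were scaled to the reads outside the 100 most abundant genes and -0.20 after removal of the length trend, where Mcm10 and Cdc6 changed direction, to -0.036 and -0.19, as did Mcm5, whose interval held 0, from 0.02 to -0.21. The median at 5 against 0 days was 0.68, against 0.37 with TMM factors, 0.38 with median-of-ratios factors, 0.48 when scaled without those 100 genes and 0.27 after removal of the length trend. The 1 member at least 2-fold higher at 5 against 0 days became 0 under each of these 4 settings and at a 4-fold threshold, and 7 at a 1.5-fold threshold. The median at 5 against 3 days was 0.74, against 0.52 with TMM factors, 0.53 with median-of-ratios factors and 0.46 after removal of the length trend. The 0 members at least 2-fold higher in that comparison became 9 at a 1.5-fold threshold. Pseudocounts of 1 and 0.01 and the sum of all rows moved the 3 medians by less than counting error and left the counts of members past 2-fold as they were, and so did a minimum of 5 RPKM and no minimum for the counts, for which alone they were run. Leaving out a replicate was not possible with 1 library per time point, and the size of the difference between mice is unknown. No paired analysis was possible because each time point has 1 library and no pair can be repeated.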

Other observations

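The genes outside the members whose pair of log2 ratios (3 against 0 and 5 against 0 days) lay nearest to the members' median pair, among 8182 genes whose mean RPKM was at least 5, were Bop1, Med9, H2afx, Dnaja3 and Zfp35. H2afx, a histone variant gene, had 152, 149 and 247 RPKM at 0, 3 and 5 days, and Bop1, a ribosome biogenesis gene, had 16.8, 16.4 and 26.9 RPKM. Of the 8182 genes, 257 lay nearer to the median pair than the typical member did, by the median of the members' own distances, 0.178, over 2 ratios from 3 libraries.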
